A study of Mus musculus with 12 samples.

Results

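MHC class I molecules display peptides from inside the cell on its surface, where CD8 T cells and natural killer cells read them. A heavy chain pairs with beta-2-microglobulin, the proteasome and its inducible subunits cut the peptides, the TAP transporter moves them into the endoplasmic reticulum, and tapasin helps to load them. In the brain, class I genes are known to be expressed by microglia, endothelium, meningeal cells and some neurons, and they have been studied in synapse remodelling as well as in immune defence.

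10 genes of this route were taken by symbol from the 55487 genes of the expression table. They were B2m (beta-2-microglobulin), the heavy chain genes H2-D1, H2-K1 and H2-T23, the transporter genes Tap1 and Tap2, Tapbp (tapasin), the inducible proteasome subunits Psmb8 and Psmb9, and Nlrc5, which encodes a transcriptional activator of class I genes. The study compared mice lacking the transcription factor USF-1 (USF-1 KO) with wildtype (WT) mice in a setting of metabolism and affective behaviour, and sequenced hippocampal RNA. Each genotype had 6 mice on the C57Bl/6JRccHsd background, 3 to 4 months old, with 1 library per mouse. The WT group held 4 females and 2 males and the KO group 2 females and 4 males, so that sex and genotype were unbalanced. These sexes are those of the labels, whereas the study describes equal numbers of males and females in each genotype. Every value by sex rests on the labels. According to the study's methods, both genotypes came from heterozygous breeders and littermates were used, and no tissue or cell type is named to which the loss of USF-1 was limited. No treatment was given in the labels. Values are normalised counts, i.e. reads per gene divided by a size factor for each library, and mice are named by genotype and mouse number.

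The libraries held 21679622 to 32091173 reads. Usf1 itself had a median normalised count of 1512 in WT mice (lowest 842, highest 1583) and of 139 in KO mice (lowest 117, highest 163), a log2 fold change of -3.29 ± 0.14 (SE, n = 6 per group, limma adjusted p = 1.77e-08). The lowest WT value belonged to WT493. Summed markers of hippocampal neurons lay between 170172 and 247690 in all mice. Choroid plexus markers summed to 60827 in WT490 and 170417 in WT493 and to 943 to 2909 in the other 10 mice. Markers of T and NK cells, the cells that read class I molecules, summed to 7.8 to 29.4 over 12 genes, and 11 of these had a mean under 10. A mean normalised count of 10 or more was reached by 18221 genes, of which 164 passed an adjusted p of 0.05 between the genotypes (29 higher and 135 lower in KO mice).

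Each of the 10 genes had a mean above 10, and their levels spanned a wide range. Levels were taken per kilobase of the union of all annotated exons of a gene. This union can be longer than the transcripts present, so the levels and their order depend on the annotation. On this scale B2m was highest with a mean normalised count of 1455 (1301 to 1806 over the 12 mice). H2-D1 followed with 218 (177 to 274), then Tapbp with 173 (151 to 212) and H2-K1 with 158 (118 to 189). These 3 ranges overlapped, whereas that of B2m stood clear of them. Tap2 had 68.2 per kilobase (54.1 to 81.7) and H2-T23, a nonclassical heavy chain that presents leader peptides to natural killer cells, had 35.9 (24.6 to 45.4). Tap1 with 16.2 (12.5 to 22.1) and Psmb8 with 15.6 (10.7 to 19.4) were at the same level within their spread. On this scale Tap1 lay below its transporter partner Tap2, without overlap. Psmb9 with 5.94 (2.76 to 9.33) and Nlrc5 with 2.33 (1.14 to 4.61) were the lowest, and their ranges overlapped. Tapbp shares its span with Zbtb22 on the same strand, and Tap1 and Psmb9 overlap on opposite strands, so reads in those stretches may be split in a way that cannot be read from the table. Of all 75-base stretches of the spliced transcripts, 5.40% of H2-D1, 3.10% of H2-K1 and 5.91% of H2-T23 also occurred in another gene. The gene sharing most was H2-Q1 for H2-D1, H2-Q10 for H2-K1 and Gm7030 for H2-T23. Counts of these 3 genes are uncertain for that reason. The shares of exact stretches do not measure by how much, since the counter is not given.

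None of the 10 genes passed the test between the genotypes. With limma, 0 of 10 passed the adjusted p of 0.05, against 0.900% of all genes tested (0.159% higher and 0.741% lower in KO mice), and 1 of 10 had an unadjusted p under 0.05, against 13.5% of all genes (5.92% higher and 7.60% lower). With edgeR and DESeq2 on the recovered reads, again 0 of 10 passed, against 0.829% and 3.64% of all genes. The median log2 fold change (KO minus WT) was 0.04 over the 10 genes and -0.00065 over all genes tested. Of the 10 genes, 6 had a value above 0 and 4 below. In each of the 10 genes the values of WT and KO mice overlapped, against 1.50% of all genes tested that did not overlap.

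**Figure D1:**
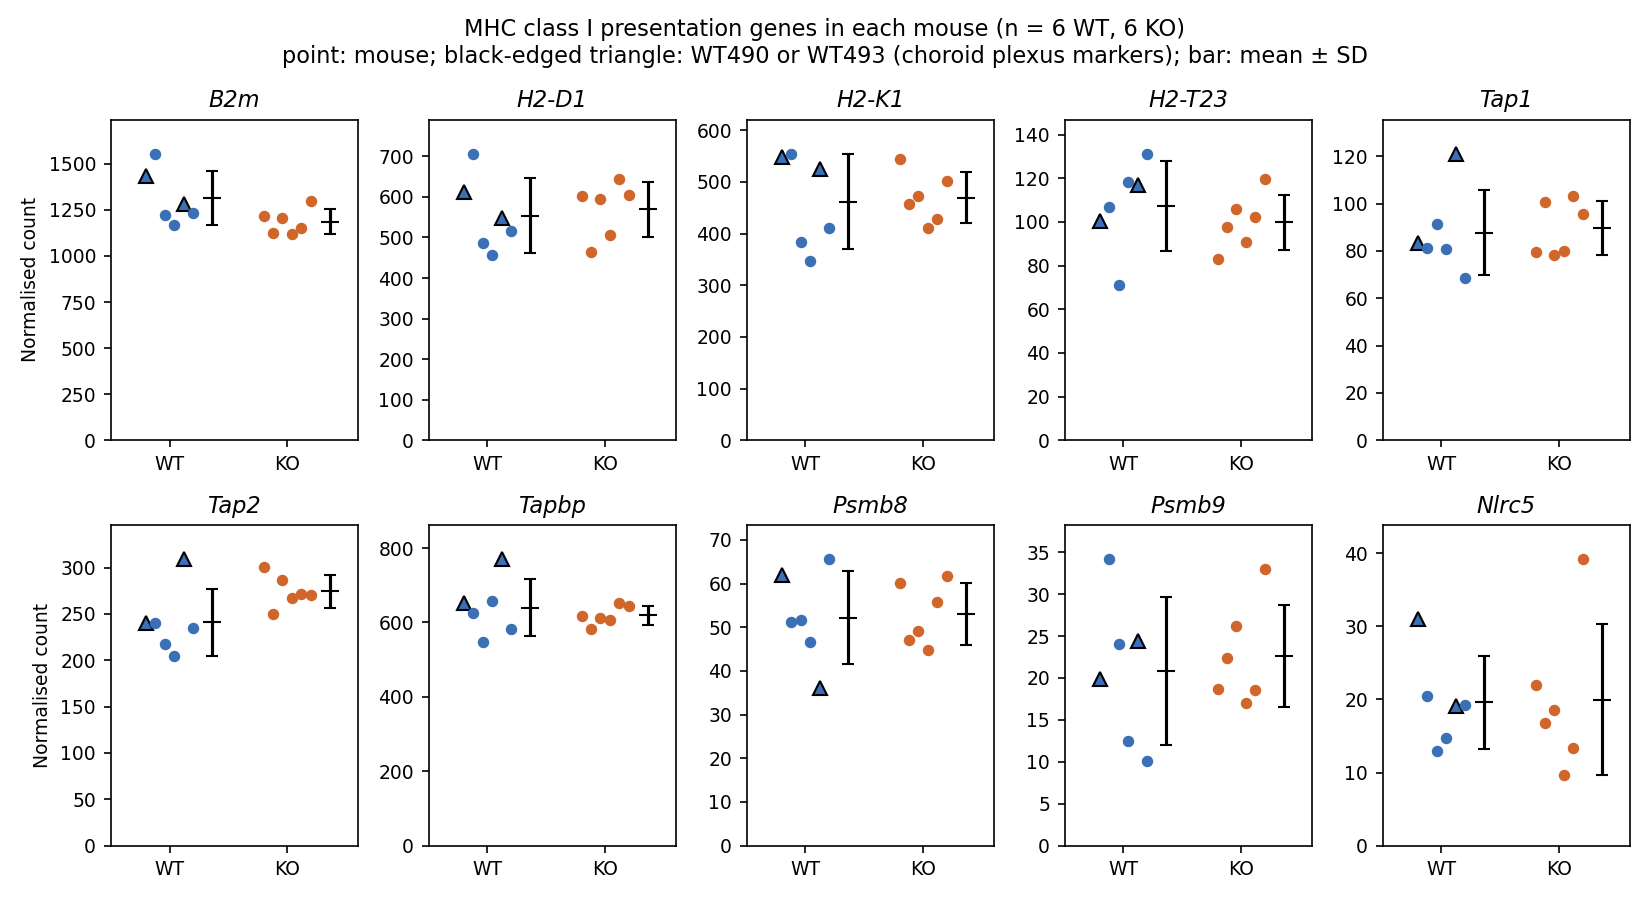
Normalised count (y axis, starting at 0) of each of the 10 genes in 6 WT (blue) and 6 KO (orange) mice; a point is a mouse, a black-edged triangle is WT490 or WT493, and the bar gives mean ± SD. The genotypes overlap in every panel, and in the Tap2 panel the highest WT point is the triangle of WT493 at 309.

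B2m, the light chain that every class I molecule needs, ran from 1167 through a median of 1258 to 1554 in WT mice and from 1119 through 1180 to 1297 in KO mice. All 6 KO mice were below the WT mean of 1316 ± 148 (SD, n = 6), but the 2 highest WT mice, WT573 (1554) and WT490 (1434), made the upper end of the WT range and the other 4 WT mice lay among the KO mice. The log2 fold change was -0.14 ± 0.07 (SE), with a 95% interval of -0.29 to 0.00 and a limma adjusted p of 0.370. The unadjusted p was 0.0501 with limma, 0.0430 with edgeR and 0.0410 with DESeq2, and the adjusted p was 0.338 with edgeR and 0.318 with DESeq2. Without WT573 the log2 fold change was -0.09. Microglia, which express B2m, had lower marker levels in the same direction: 16 of 16 microglia markers had a log2 fold change below 0 (median -0.20), 10 of them with an unadjusted p under 0.05 against 7.60% of all genes in that direction, and 0 passed the adjusted p with limma. Their sum was 10925 to 15095 in WT and 10338 to 11546 in KO mice. Of all 18221 genes tested, 9152 had a log2 fold change below 0. Other marker lists went both ways. Those below 0 were 5 of 14 for endothelium (median 0.03) and 7 of 10 for meningeal fibroblasts (median -0.08). They were 2 of 14 for hippocampal neurons (median 0.14), 12 of 12 for choroid plexus, 5 of 5 for perivascular macrophages and 0 of 5 for blood. The part of these markers in the values of B2m was not tested, and in bulk tissue fewer cells of a type and less RNA per cell cannot be told apart.

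The classical heavy chains, which hold the peptide, overlapped widely between the genotypes. H2-D1 had 457, 532 and 706 (lowest, median, highest) in WT mice and 465, 598 and 644 in KO mice, and H2-K1 had 346, 468 and 554 in WT mice and 410, 465 and 544 in KO mice. WT mice spread more widely than KO mice in both genes, with WT573 highest and WT522 lowest in each. The log2 fold changes were 0.05 ± 0.11 (SE) for H2-D1 and 0.04 ± 0.12 for H2-K1, with limma adjusted p of 0.895 and 0.916. The 95% intervals, taken as folds, ran from 0.881 to 1.21 for H2-D1 and from 0.862 to 1.23 for H2-K1. H2-T23 was 71.1, 112 and 131 in WT mice and 83.0, 99.8 and 119 in KO mice, a log2 fold change of -0.09 ± 0.14 (adjusted p = 0.826). No mouse stood apart from its genotype in any of the 3 heavy chains: the highest mouse exceeded the lowest by 1.55 times for H2-D1, 1.599 times for H2-K1 and 1.84 times for H2-T23. Counts per gene do not tell alleles apart, so a mouse of another haplotype could not be recognised by its sequence.

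Tap2 had the lowest p of the 10 genes with limma, whereas B2m had the lowest with edgeR and DESeq2. The unadjusted p of Tap2 was 0.0630 with edgeR and 0.0530 with DESeq2. Tap2 encodes a subunit of the peptide transporter. It ran from 204 through 238 to 309 in WT mice and from 250 through 271 to 301 in KO mice. 6 of 6 KO mice were above the WT mean of 241 ± 36.1 (SD, n = 6), and 5 of the WT mice, at 204 to 241, lay below all KO mice. The sixth, WT493, was the highest of all 12 mice. The log2 fold change was 0.20 ± 0.09 (SE; unadjusted p = 0.0434, limma adjusted p = 0.350), and the adjusted p ranged from 0.103 to 0.544 over the alternatives. Leaving out WT493, one of the mice with choroid plexus markers, brought the value to 0.27 (limma unadjusted p = 0.00159, adjusted p = 0.103), and leaving out WT490 as well to 0.29 (adjusted p = 0.165). The part of the choroid plexus markers in the values of WT493 was not tested.

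Its partner Tap1 was 68.6, 82.3 and 121 in WT mice and 78.5, 87.9 and 103 in KO mice, with WT493 again highest (log2 fold change 0.04 ± 0.13, adjusted p = 0.919). Tapbp was 549, 639 and 770 in WT mice and 581, 615 and 653 in KO mice (-0.04 ± 0.07, adjusted p = 0.848), and here too the highest value was that of WT493. WT493 thus held the maximum of all 3 genes of peptide transport and loading, and the minimum of Psmb8. Psmb8, a catalytic subunit of the immunoproteasome, was 36.1, 51.5 and 65.6 in WT mice and 44.9, 52.4 and 61.8 in KO mice (0.04 ± 0.15, adjusted p = 0.939).

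Psmb9 and Nlrc5 were covered by few reads. Psmb9, another catalytic subunit of the immunoproteasome, had 10 to 40 reads per library and Nlrc5 had 8 to 39. Psmb9 was 10.08, 21.9 and 34.1 in WT mice and 16.98, 20.6 and 33.0 in KO mice (log2 fold change 0.18 ± 0.27, adjusted p = 0.817). Its value was 0.10 with edgeR and 0.11 with DESeq2, and it ranged from 0.0093 without WT547 to 0.34 without WT573. Nlrc5 was 12.9, 19.1 and 31.0 in WT mice and 9.7, 17.7 and 39.1 in KO mice (-0.05 ± 0.29, adjusted p = 0.961). The intervals allow folds from 0.757 to 1.70 for Psmb9 and from 0.625 to 1.49 for Nlrc5, so changes within these limits could not be told from none. The coefficient of variation over the 12 mice was 33.4% for Psmb9 and 41.3% for Nlrc5, where read counting alone gives 22.9% and 24.4%. For B2m these values were 10.3% and 2.86%, and for Psmb8 16.4% and 14.1%.

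**Figure D2:**
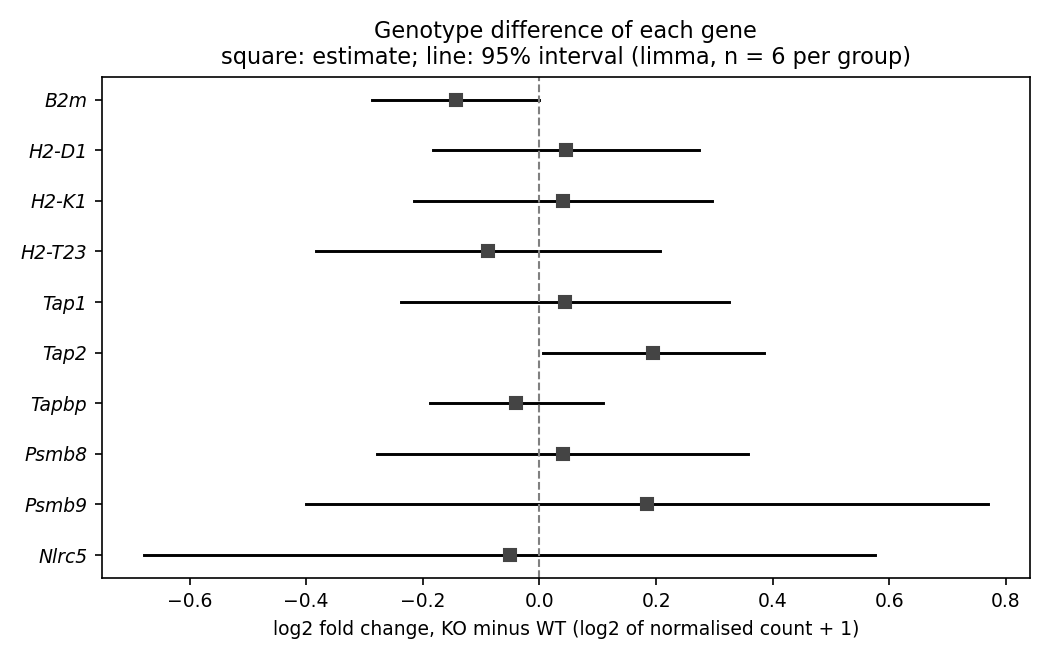
Log2 fold change (x axis, KO minus WT, log2 of normalised count + 1) of each of the 10 genes, with the 95% interval from limma as a line (n = 6 per genotype). Of the 10 intervals, that of Tap2 lies above 0 and that of B2m ends at 0, and the intervals of Psmb9 and Nlrc5 are the widest.

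The genes differed in whether they followed B2m from mouse to mouse. With values centred within each genotype (log2 scale, n = 12), B2m varied with H2-D1 (Pearson r = 0.86, rho = 0.82; permutation adjusted p over 9 relations = 0.00733 and 0.0078), with H2-K1 (r = 0.85, rho = 0.95; permutation adjusted p = 0.00733 and 0.00135) and with Nlrc5 (r = 0.69, rho = 0.80; permutation adjusted p = 0.0149 and 0.00432). The unadjusted permutation p of r were 0.000870, 0.00163 and 0.00496. Within the WT mice alone r was 0.99 for H2-D1, 0.87 for H2-K1 and 0.68 for Nlrc5. Within the KO mice alone it was 0.60, 0.75 and 0.93. Without WT490 and WT573, the 2 mice farthest from the median of B2m, r was 0.68, 0.76 and 0.86. H2-K1 no longer passed without WT522 (r = 0.80), and Nlrc5 no longer passed without KO482 (r = 0.64). Psmb9 had r = 0.70 and did not pass (permutation adjusted p = 0.0842), although it did without WT490 or without WT523. Tap1 (r = -0.04), H2-T23 (r = 0.09) and Tapbp (r = 0.18) showed little relation to B2m, and Psmb8 (r = 0.32) did not pass either. Tap2 did not pass by r (0.32, permutation adjusted p = 0.675) but did by rank (rho = 0.73, permutation adjusted p = 0.0408). Without centring, r was 0.66 for both H2-D1 and H2-K1 and 0.61 for Nlrc5, and 0 of 9 relations passed (permutation adjusted p from 0.0707, with 3 unadjusted p under 0.05).

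**Figure D3:**
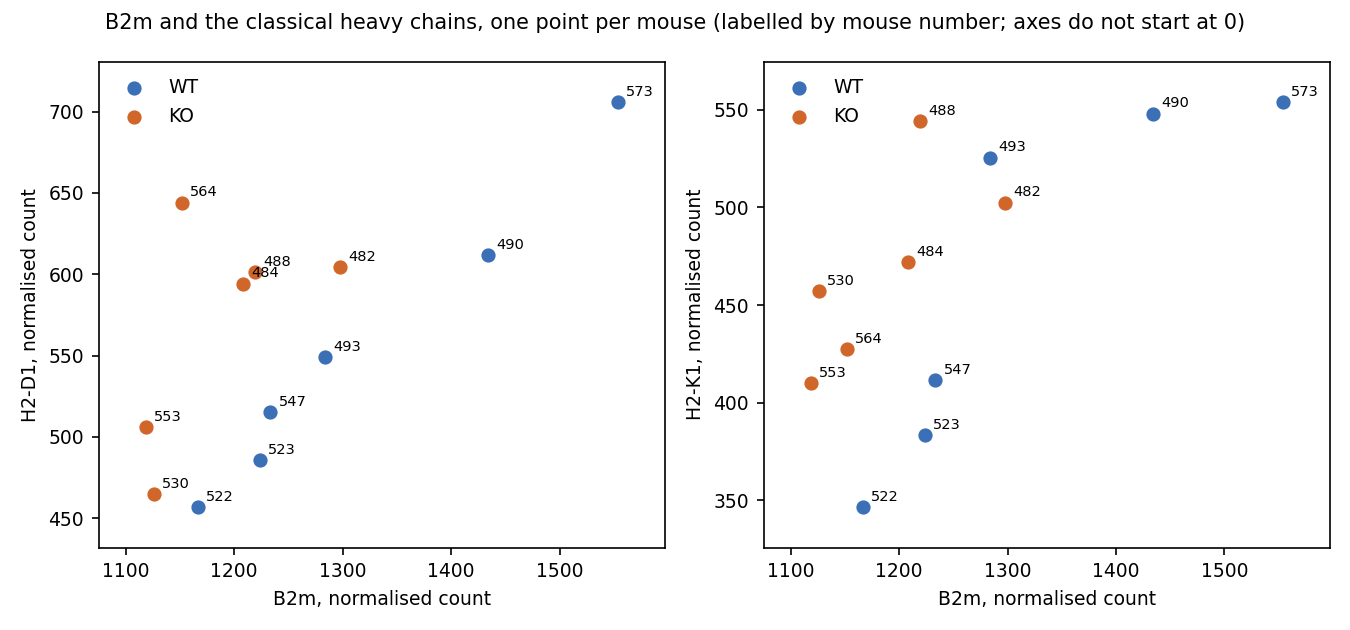
Normalised counts of H2-D1 (left) and H2-K1 (right) on the y axes against B2m on the x axis, 1 point per mouse labelled by mouse number, WT in blue and KO in orange; the axes do not start at 0. The heavy chains rise with B2m within each colour, less closely for H2-D1 in KO mice (r = 0.60) than in WT mice (r = 0.99). WT522 and WT573 lie at the ends of the WT mice.

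Other genes followed B2m as closely as the heavy chains did. Among 12676 genes with a mean of at least 100, the most alike outside the 10 were Wasf2, a regulator of the actin skeleton (r = 0.89), the transporters Slc6a13 and Slc13a3 (both r = 0.88), Rgs5, a gene of pericytes (r = 0.87), and Praf2 (r = 0.86); H2-D1 took the place 5 in that order and H2-K1 the place 9. Slc6a13 is also one of 10 meningeal fibroblast markers. The sum of these markers was 2072 to 3047 in WT490, WT493, WT573, KO482 and KO488 and 812 to 1250 in the other 7 mice. In the same 5 mice H2-K1 was at 503 to 554 and in the other 7 at 346 to 472, without overlap. All the other class I genes of the 10 overlapped. Among them were H2-D1 (549 to 706 and 457 to 644), B2m (1219 to 1554 and 1119 to 1233) and Nlrc5 (19.11 to 39.1 and 9.7 to 19.16). The mice were split at the widest step of the marker sum, after the values were seen. The share of all genes that separate the same 5 and 7 mice was not computed. Perivascular macrophage markers summed to 137 to 229 in the 5 mice and to 58.3 to 106 in the other 7. Within the 7 mice low in meningeal markers, where B2m spans a narrower range, r with B2m was 0.67 for H2-D1, 0.78 for H2-K1 and 0.56 for Nlrc5, and 0 of 9 relations passed (permutation adjusted p from 0.288, with 1 unadjusted p under 0.05, that of Tap2). With 3 WT and 4 KO mice there are 144 orders within genotype, so a single relation could not go below an adjusted p of 0.0625. Several relations together at the smallest p could have passed. With so few orders, the count of 0 does not show whether the relations hold. The 5 mice were too few for a correlation. The 5 mice held 3 WT and 2 KO mice. The part of these markers in the class I values was not tested.

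**Figure D4:**
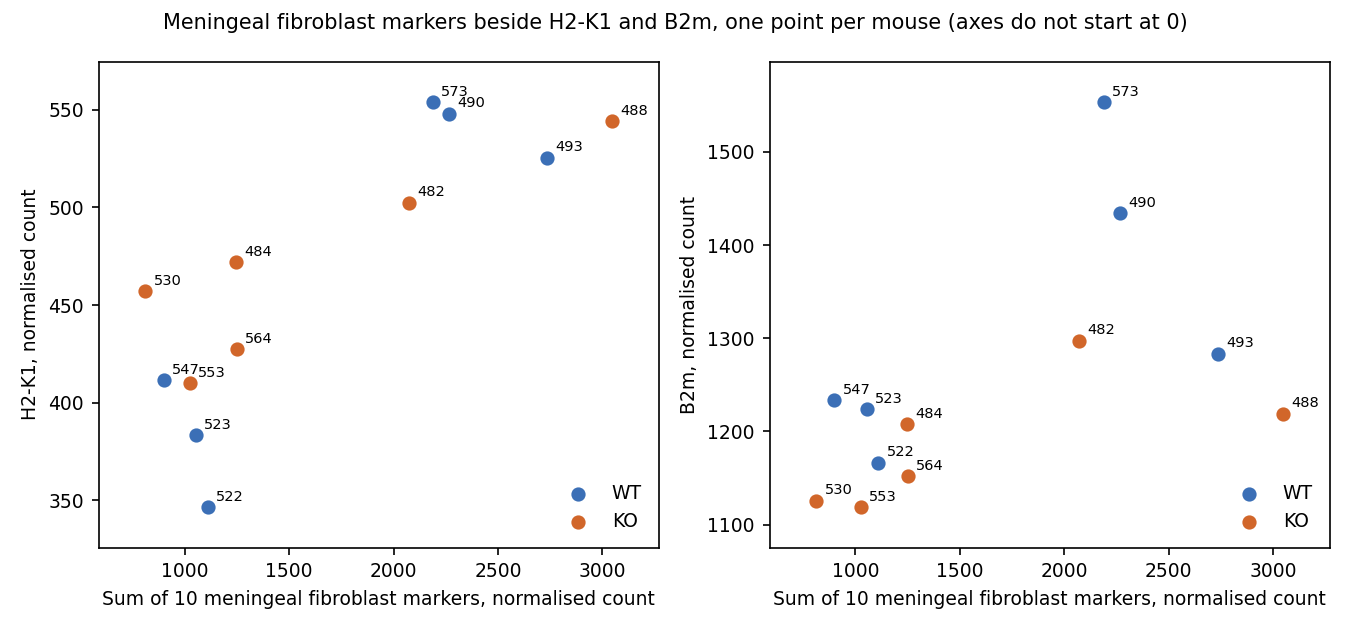
Normalised counts of H2-K1 (left) and B2m (right) on the y axes against the sum of 10 meningeal fibroblast markers on the x axis, 1 point per mouse labelled by mouse number, WT in blue and KO in orange; the axes do not start at 0. The 5 mice with a sum of 2072 to 3047 lie above the other 7 in H2-K1, and in B2m the mouse KO488 lies among the others.

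Relative to B2m in the same mouse, a comparison chosen after the values were seen, Tap2 was 15.5 to 24.1 per 100 of B2m in WT mice and 20.9 to 24.7 in KO mice. Only WT493 reached the KO range. The log2 difference was 0.34 (two-sided exact permutation p = 0.0130 over 924 assignments; smallest possible p = 0.00216), and it stayed between 0.29 and 0.42 when each mouse was left out in turn. H2-D1 per 100 of B2m was 39.1 to 45.4 in WT and 41.3 to 55.9 in KO mice (log2 difference 0.19, exact permutation p = 0.0238), but p was 0.0519 without WT522. H2-K1 was 29.7 to 40.9 and 36.7 to 44.7 (0.18, exact permutation p = 0.0584) and passed 0.05 without WT490 or without WT493. 2 of the 9 genes were thus higher relative to B2m at an exact permutation p under 0.05, against 16.0% of all genes compared, and 0 were lower, against 1.72%. The median log2 ratio to B2m of all genes was itself higher by 0.14 in KO mice. Each of these ratios carries the value of B2m.

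Sex was the other label that differed between mice. With genotype in the fit, 0 of 10 genes passed with limma (0.0549% of all genes did) and 0 of 10 had an unadjusted p under 0.05 (6.45% of all genes did). The lowest p was that of H2-T23, which was 71.1 to 118 in WT females, 117 to 131 in WT males, 83.0 to 97.5 in KO females and 91.0 to 119 in KO males. The log2 difference of males minus females was 0.28 ± 0.13 (SE; unadjusted p = 0.0540, limma adjusted p = 0.778). Whether the genotype difference itself differed between the sexes was tested as an interaction, in which the smallest groups held 2 mice. With limma, 0 of 10 genes passed (0% of all genes did) and 0 of 10 had an unadjusted p under 0.05 (3.45% of all genes did).

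The sequences in front of the genes are shown because USF-1 binds the E-box CACGTG, and because H2-D1, H2-K1 and B2m varied together across mice. Promoter windows of 250 bases before and 50 bases after the start site were taken from RefSeq (GRCm38.p6), which had a window for 8 of the 10 genes; Tap2 and Nlrc5 were not matched. CACGTG was in the windows of 0 of the 8 genes, against 8.09% of all genes with a window and 7.15% of all 32851 windows. The looser CANNTG, which contains CACGTG, was in 5 of 8 genes and in 74.99% of all genes with a window. In the sequences, read 5′ to 3′ on the strand of the gene, capitals mark matches on either strand to GGGATTCCC (a binding site of NF-kB), TTTCNNTTT (the core of an interferon response element), TGACGC (a CRE-like box) and CCAAT (the box bound by NF-Y). The windows are chr2:122147437-122147736 on the plus strand for B2m, chr17:35262844-35263143 on the plus strand for H2-D1, chr17:34000284-34000583 on the minus strand for H2-K1 and chr17:34187306-34187605 on the plus strand for Tap1.
B2m: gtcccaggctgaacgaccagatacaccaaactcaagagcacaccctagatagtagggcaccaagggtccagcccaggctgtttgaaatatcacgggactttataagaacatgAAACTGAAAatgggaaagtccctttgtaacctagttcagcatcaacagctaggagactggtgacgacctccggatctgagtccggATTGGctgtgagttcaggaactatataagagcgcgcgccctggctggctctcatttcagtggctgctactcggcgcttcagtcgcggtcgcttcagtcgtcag
H2-D1: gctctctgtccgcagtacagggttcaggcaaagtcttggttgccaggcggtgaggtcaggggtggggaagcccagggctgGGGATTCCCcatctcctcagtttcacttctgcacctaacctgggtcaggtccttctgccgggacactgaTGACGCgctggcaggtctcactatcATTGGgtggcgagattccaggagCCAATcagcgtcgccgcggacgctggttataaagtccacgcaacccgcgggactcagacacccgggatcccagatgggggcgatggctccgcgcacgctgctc
H2-K1: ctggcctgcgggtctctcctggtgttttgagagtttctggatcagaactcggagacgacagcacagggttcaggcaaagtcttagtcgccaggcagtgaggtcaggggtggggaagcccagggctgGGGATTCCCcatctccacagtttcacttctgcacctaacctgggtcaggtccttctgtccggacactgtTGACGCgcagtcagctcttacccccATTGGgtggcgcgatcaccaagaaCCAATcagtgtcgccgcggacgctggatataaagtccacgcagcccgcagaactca
Tap1: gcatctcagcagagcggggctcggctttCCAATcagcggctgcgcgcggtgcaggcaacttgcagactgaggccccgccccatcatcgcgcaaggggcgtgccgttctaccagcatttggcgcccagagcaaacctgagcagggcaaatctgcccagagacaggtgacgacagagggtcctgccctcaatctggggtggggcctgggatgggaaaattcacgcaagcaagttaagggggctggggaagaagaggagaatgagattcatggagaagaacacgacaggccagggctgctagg

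GGGATTCCC was in the windows of H2-D1 and H2-K1, against 0.353% of all windows, and TGACGC was in the same windows, against 7.40%. GGGATTCCC began at position -170 from the start site in H2-D1 and at -124 in H2-K1. The windows of H2-D1 and H2-K1 were 87.7% identical over 253 aligned bases, so these matches are not independent. TTTCNNTTT was in B2m and H2-T23 (12.1% of all genes with a window), and CCAAT was in 7 of 8 genes (41.1% of all genes with a window). Tap1 and Psmb9 are read outwards from the same stretch of chromosome 17, and their windows share 275 bases. Each box was searched as a fixed string, so variants were neither counted nor marked. Examples are tttcacttc in H2-D1 and H2-K1 and tgacga in B2m, which differ from TTTCNNTTT and TGACGC in the last letter. A window without a match may thus hold a variant of the same box. A match of letters is a description of the window and not a site of binding.

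8 of the 10 genes lie in the MHC on chromosome 17, B2m on chromosome 2 and Nlrc5 on chromosome 8. Between Tapbp and H2-T23 (mm10, 2.12 Mb), 106 genes were tested, of which 2 passed with limma, both higher in KO mice (0.159% of all genes were). They were C4b and C4a, paralogues that encode complement component 4 and a related protein. C4b was 883, 1085 and 1195 (lowest, median, highest) in WT mice and 1417, 1577 and 1784 in KO mice, so that all KO mice were above all WT mice (log2 fold change 0.59 ± 0.08 (SE), limma adjusted p = 0.00283). C4a was 235, 283 and 308 in WT mice and 354, 385 and 419 in KO mice, again without overlap (0.47 ± 0.07, adjusted p = 0.00636). The pair is near-identical in sequence and the counting could split reads between them. The median log2 fold change of the 106 genes was 0.04, and none of the 8 class I genes of the region passed.

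**Figure D5:**
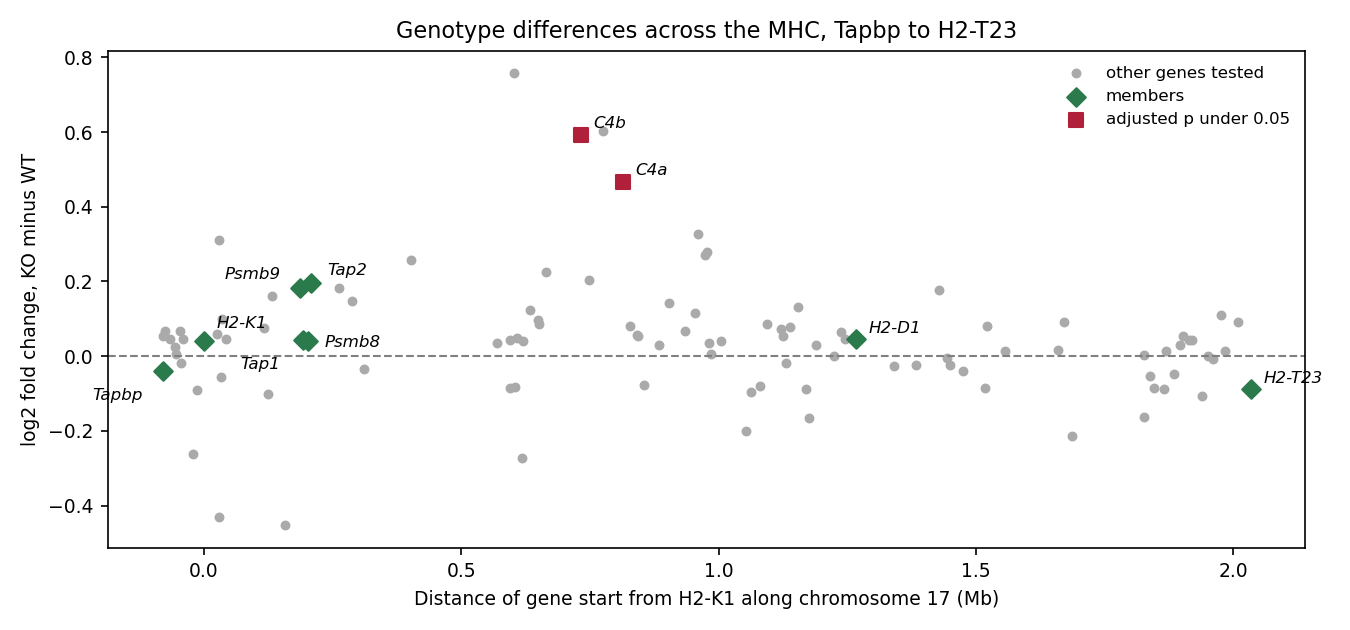
Log2 fold change (y axis, KO minus WT) of the 106 genes tested between Tapbp and H2-T23, against the distance of each gene's start from that of H2-K1 along chromosome 17 in Mb (x axis); green diamonds are class I genes of the 10, red squares passed an adjusted p of 0.05, and grey points are other genes. C4b at 0.59 and C4a at 0.47 are the red squares, and the diamonds lie between -0.09 and 0.20.

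No gene in the rest of the class I pathway passed with limma either. Of 26 further heavy chain and class I-like genes, 25 were matched in the table and 14 reached the limit on the mean. With limma 0 of 14 passed, against 0.900% of all genes tested. An unadjusted p under 0.05 was reached by 0 of 14, against 13.5% of all genes. The lowest p were those of Mr1, which presents vitamin B metabolites (WT mean 121, KO mean 95.9, log2 fold change -0.32 ± 0.21 (SE)), Hfe, a regulator of iron uptake (151 and 116, -0.25 ± 0.24), and H2-K2 (44.7 and 35.99, -0.26 ± 0.28). WT490 and WT493, the mice with choroid plexus markers, held the highest WT values of Mr1 (136 and 196) and of Hfe (198 and 279). For Mr1, the remaining WT mice were at 94.3 to 102, within the KO range of 59.4 to 126. For Hfe, WT547 (85.7), WT522 (94.3) and WT573 (102) lay below the KO mean of 116, and WT523 (147) above it. The part of WT490 and WT493 in these fold changes was not tested. The median log2 fold change of the 14 genes was -0.04.

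Of 29 genes of peptide supply and loading, which were proteasome subunits and activators, trimming peptidases and chaperones of the endoplasmic reticulum, all were tested and 0 passed with limma, 3 of them with an unadjusted p under 0.05, all lower in KO mice, near the 7.60% of all genes that were. Erap1, which trims peptides to the length that class I molecules hold, was 190 to 260 in WT mice and 130 to 201 in KO mice (log2 fold change -0.39 ± 0.12 (SE), adjusted p = 0.146). All 6 KO mice were below its WT mean of 216. Without WT490 and WT493 its log2 fold change was -0.26 (adjusted p = 0.504). Pdia3, a disulphide isomerase of the loading complex, was 3705 to 4660 in WT and 3585 to 4019 in KO mice (-0.14 ± 0.05, adjusted p = 0.267), and Calr, a chaperone of that complex, was 8227 to 10589 and 8568 to 9666 (-0.13 ± 0.06, adjusted p = 0.342). The median over the 29 genes was -0.01.

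Of 18 genes of transcriptional control, 17 were tested and 0 passed with limma, against 0.900% of all genes. An unadjusted p under 0.05 was reached by 0 of 17, against 13.5% of all genes. The lowest p were those of Nfyb and Nfyc, subunits of the factor that binds CCAAT (log2 fold changes 0.12 ± 0.06 and 0.09 ± 0.04), and Usf2, the paralogue of Usf1 that binds the same E-box (WT mean 1995, KO mean 2075, 0.06 ± 0.03, adjusted p = 0.468). 6 of 6 KO mice were above the WT mean of Usf2. Ciita, the activator of class II genes, had a mean of 3.0 and was not tested.

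Of 24 interferon-stimulated genes tested, 0 passed with limma, and 2 had an unadjusted p under 0.05, both lower in KO mice, near the 7.60% of all genes that were. Ifi27 was 543 to 1107 in WT mice and 427 to 534 in KO mice, without overlap, as for 1.50% of all genes (log2 fold change -0.55 ± 0.14 (SE), adjusted p = 0.0909). It passed with DESeq2 (adjusted p = 0.00605) and, with limma, without WT522 (adjusted p = 0.0283), but its log2 fold change was -0.34 (adjusted p = 0.131) without WT490 and WT493. Lgals3bp was 282 to 1092 and 212 to 293 (-0.72 ± 0.28, adjusted p = 0.262). Without WT493 its log2 fold change was -0.44, and without WT490 as well -0.27 (adjusted p = 0.413). Bst2, which tethers viruses at the cell surface, was 41.3 to 137 and 41.4 to 57.8 (-0.41 ± 0.24, adjusted p = 0.493). The highest value of each of these 3 genes was that of WT493. Of 6 MHC class II genes tested, 0 passed with limma, against 0.900% of all genes. Only 1 of the 6 had an unadjusted p under 0.05 and was lower in KO mice, against 7.60% of all genes. It was H2-DMb1, a subunit of the class II peptide editor (limma unadjusted p = 0.0342, WT 24.9 to 58.4, KO 22.4 to 28.5, log2 fold change -0.45 ± 0.19). H2-DMa (-0.10 ± 0.08) and Cd74, the invariant chain (-0.19 ± 0.51), followed.

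Among the cell type markers, 1 gene passed with limma, Tiam1 in the list of hippocampal neurons (log2 fold change 0.30 ± 0.06 (SE), adjusted p = 0.0398), and in 9 of 12 fits that left out a mouse it did not pass. No marker of microglia, endothelium, perivascular macrophages, T and NK cells, choroid plexus, meningeal fibroblasts or blood passed.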

How the data were processed

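Hippocampal RNA of 12 mice was sequenced after total RNA extraction and NEBNext Ultra II library preparation. According to the study's methods, the authors aligned reads with STAR and normalised with DESeq2; the submitters' processing notes name STAR 2.5.0a, edgeR 3.22.2 and mm10. The counter, annotation and strand setting are not given in the sources used here. The deposited table gives a signal per gene, i.e. counts divided by DESeq size factors. Steps between low values gave whole reads back for 100% of values in each library (tolerance 0.001), with 21679622 to 32091173 reads per library; intervals cover the spread between mice. No value column was left unused.

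log2(normalised count + 1) of the 18221 genes with a mean of at least 10 was fitted with limma 3.58.1 in R 4.3.3 (trend, genotype as the single term, two-sided, Benjamini-Hochberg over all genes, threshold 0.05). Fold changes are on that log2 scale, on which the added 1 shrinks differences between low values. edgeR 4.0.16 (quasi-likelihood) and DESeq2 1.42.0 on recovered reads were alternatives, since the deposited values are not raw counts. Sex was tested with genotype in the fit, and the interaction from the 4 group means. Correlations were permuted 100000 times within genotype, and single values were compared by exact permutation in Python 3.11.15. The fits were tested on simulated data. Gene overlaps came from GENCODE M21, of whose 55450 genes 54821 had the coordinates of the table, and promoters from RefSeq (GRCm38.p6). No 2 libraries were alike within sampling noise.

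The 10 genes, the wider pathway lists and the marker lists were chosen with earlier results of these data known, and the lists came from general knowledge. Of each pathway list, genes past the threshold were named and, with fewer than 3, up to 3 with the lowest p; of the markers and the region, those past the threshold; and the 5 genes with a mean of at least 100 most alike to B2m. The comparisons without WT490 and WT493, within the 7 mice low in meningeal markers and relative to B2m were chosen after seeing the data. Littermates were used, but which mice share a litter is not given, so p-values measure the spread between these mice.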

Additional observations from a re-analysis of the deposited data

Results flagged for a closer look

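Among the 6 WT mice, WT493 stood apart from the others in 2 genes. Tap2 was 308.9 in WT493 and 204 to 241 in the other 5 WT mice, and Usf1 was 841.8 in WT493 and 1425 to 1583 in the others. In both genes the gap to the nearest mouse was wide against the range of the group (0.653 and 0.787 of it, where the 95% limit for 6 values is 0.625). 44 groups were looked at, and chance gives about 2.2 such mice. WT493 was also the mouse with the highest choroid plexus markers, summing to 170417. WT490, where these markers summed to 60827, had Tap2 at 240 and Usf1 at 1505, within the range of the other WT mice. The part of these markers in the values of Tap2 and Usf1 was not tested.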

How the results depend on the processing

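No paired analysis was possible because the mouse numbers are not shared between the genotypes. The count of class I genes past the threshold was 0 by genotype in all 24 alternatives, and 0 by sex and for the interaction in all 22 of each. The wider pathway had 1 gene past the threshold, Ifi27, with DESeq2 and at a threshold of 0.1, and 0 to 1 when each mouse was left out. Over all genes, the count by genotype was 164, against 611 with DESeq2, 109 without the trend, 98 with sex as a covariate, 343 at a threshold of 0.1, 59 without WT490 and WT493, and 64 to 515 when each mouse was left out (515 without WT522). C4a, C4b and Usf1 passed in all 24 alternatives, and Tiam1 did not pass in 13. The number of relations with B2m past the threshold was 0 without centring, 0 within the 7 mice low in meningeal markers (where a single relation cannot go below an adjusted p of 0.0625) and 2 to 4 when each mouse was left out. The cause of these changes was not tested.

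Signs of values that never passed changed in these cases. By genotype, the log2 fold change of Nlrc5 was 0.024 with DESeq2, 0.022 with edgeR and 0.13 without WT490 and WT493, where that of Tapbp was 0.039 and of Psmb8 -0.016. When each mouse was left out it ranged from -0.0073 to 0.12 for H2-D1, -0.037 to 0.10 for H2-K1, -0.021 to 0.14 for Tap1, -0.082 to 0.016 for Tapbp, -0.059 to 0.11 for Psmb8 and -0.26 to 0.12 for Nlrc5. By sex (males minus females), without WT490 and WT493 it was -0.11 for Tap1, 0.13 for Psmb8 and 0.021 for Nlrc5. When each mouse was left out it ranged from -0.066 to 0.0069 for B2m, -0.056 to 0.10 for H2-D1, -0.14 to 0.027 for H2-K1, -0.12 to 0.19 for Tap1, -0.21 to 0.10 for Psmb8, -0.28 to 0.17 for Psmb9 and -0.21 to 0.087 for Nlrc5. The interaction was 0.13 for Nlrc5 with edgeR, and without WT490 and WT493 it was 0.28 for Tap1, 0.14 for Tapbp and -0.41 for Psmb8. When each mouse was left out it ranged from -0.25 to 0.016 for H2-T23, -0.53 to 0.28 for Tap1, -0.24 to 0.16 for Tapbp, -0.33 to 0.51 for Psmb8, -0.036 to 1.16 for Psmb9 and -0.52 to 0.12 for Nlrc5.

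The correlation with B2m was -0.072 for Tap2 without centring, 0.054 for Tap1 with libraries rescaled to the same total and -0.30 for Tapbp within the 7 mice. When each mouse was left out it ranged from -0.20 to 0.22 for H2-T23 and from -0.19 to 0.066 for Tap1. Relative to B2m, the log2 difference ranged from -0.040 to 0.13 for H2-T23 and from -0.11 to 0.25 for Nlrc5. Without WT490 and WT493 that of H2-D1 was 0.20 (exact permutation p = 0.0524) and that of H2-K1 0.28 (exact permutation p = 0.00476). With the limit on the mean at 50, Psmb9 and Nlrc5 had no value. Read counting alone gives a coefficient of variation of 22.9% for Psmb9 and 24.4% for Nlrc5.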
